A study of Mus musculus with 3 samples.

Results

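Erythroid cells, the red blood cell lineage caught in the fetal ovary, were taken as the cells of the embryonic day 16.5 library in which the adult globin genes Hba-a1, Hba-a2, Hbb-bs and Hbb-bt together made 10% or more of the UMIs. They numbered 142 of the 459 deposited cells of that library (30.9%, exact Clopper-Pearson 95% interval 26.7 to 35.4) and were described among 1554 cells of the whole study. They were then split by the number of genes detected per cell. The 102 cells with 1000 or more genes are called erythroblast-like (71.8% of the members, 63.7 to 79.1) and the 40 cells with under 1000 genes reticulocyte-like (28.2%, 20.9 to 36.3). The study profiled single cells of whole ovaries from wild-type C57BL/6 female mice of 3 ages, with no treatment named: embryonic day 16.5 (day 17 by its title), then days 7 and 14 after birth. Each age is 1 library, and how many animals were pooled is not stated, so age and library cannot be told apart and cells of a library are not replicates. Ovaries were digested with collagenase and loaded on the Chromium 3′ version 2 system, which counts each captured mRNA once by its unique molecular identifier (UMI), and the 3 libraries shared 1 HiSeq 4000 lane. All intervals below are 95% intervals for counting error only, and no test across animals was possible.

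As background, erythroblasts are nucleated red cell precursors that fill with haemoglobin, a tetramer of α-like and β-like globin chains that each hold a heme group with its iron. They stop dividing, condense and expel the nucleus and become reticulocytes, which make no new mRNA, still translate what they hold, and clear their mitochondria and ribosomes. In the mouse, embryonic globin chains are made mainly by yolk sac red cells, and adult chains mainly but not only by the fetal liver lineage. Cells of that lineage reach every organ through the blood.

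The members turn on the adult globin genes and on Alas2, whose enzyme catalyses the first and rate-limiting step of heme synthesis in red cells, so their promoters are shown. Each is the stretch of 250 bases before the start of the gene in the RefSeq annotation of GRCm38.p6, printed 5′ to 3′ on the strand of the gene. Hba-a1 lies at chr11:32283422-32283671 on the plus strand, Hbb-bs at chr7:103827929-103828178 and Hbb-bt at chr7:103813924-103814173 on the minus strand, and Alas2 at chrX:150547167-150547416 on the plus strand. The GENCODE spans of the same genes begin inside these windows. Capitals mark matches on either strand to CCACACCC or CCNCNCCC (the CACCC box that KLF1 recognises), AGATAA or TGATAA (forms of the GATA site), CCAAT and TATAA.
Hba-a1: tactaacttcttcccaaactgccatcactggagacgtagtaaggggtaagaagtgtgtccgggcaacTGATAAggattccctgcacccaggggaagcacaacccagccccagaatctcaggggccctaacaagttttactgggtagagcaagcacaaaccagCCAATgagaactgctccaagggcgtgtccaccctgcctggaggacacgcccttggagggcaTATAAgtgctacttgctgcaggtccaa
Hbb-bs: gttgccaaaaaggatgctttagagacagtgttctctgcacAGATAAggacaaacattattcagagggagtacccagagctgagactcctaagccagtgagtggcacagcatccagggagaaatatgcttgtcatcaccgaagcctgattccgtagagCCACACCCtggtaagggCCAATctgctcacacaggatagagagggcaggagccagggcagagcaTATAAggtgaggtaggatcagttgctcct
Hbb-bt: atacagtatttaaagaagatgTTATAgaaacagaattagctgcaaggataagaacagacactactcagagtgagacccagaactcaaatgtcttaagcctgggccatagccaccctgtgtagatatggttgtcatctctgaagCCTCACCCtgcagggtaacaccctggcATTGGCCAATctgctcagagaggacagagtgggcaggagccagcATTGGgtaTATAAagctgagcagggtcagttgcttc
Alas2: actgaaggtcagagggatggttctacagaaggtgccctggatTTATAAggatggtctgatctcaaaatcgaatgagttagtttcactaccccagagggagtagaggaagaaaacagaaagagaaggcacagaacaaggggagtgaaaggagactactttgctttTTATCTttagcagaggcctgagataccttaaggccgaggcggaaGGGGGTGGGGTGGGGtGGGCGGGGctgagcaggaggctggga
The Hbb-bs window held CCACACCC at position −93 and AGATAA at −210, counted from the annotated start to the first base of the match. The Hbb-bt window held neither, nor TGATAA; its CACCC-like match was CCTCACCC at −107. Hba-a1 held TGATAA at −183 and no CACCC box, and Alas2 held AGATAA on the opposite strand at −86. All 3 globin windows held CCAAT (at −88, −76 and −75) and TATAA (at −27, −29 and −28). Of 32851 RefSeq promoters cut the same way, 3.20% held CCACACCC, 45.9% CCNCNCCC, 9.99% AGATAA, 7.94% TGATAA, 33.8% CCAAT and 22.8% TATAA on either strand. A match describes these letters and is not a binding site. The windows of Hba-a1 and Hba-a2 were identical over the 247 bases that could be aligned and their transcripts differed at 1 of 538 aligned bases. Reads of these genes may therefore not be separable, and their split is uncertain. The windows of Hbb-bs and Hbb-bt were identical at 178 of 243 aligned bases (73.3%) and the transcripts at 580 of 626 (92.7%).

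The members carried the named markers, with a difference between the arms. The adult globins were chosen by the rule and were present in all 142 cells. Klf1, which encodes the master transcription factor of the red cell lineage, had 933 UMIs in the erythroblast-like cells (lowest 0, median 9, highest 36 per cell) and 13 in the reticulocyte-like cells (0, 0 and 4). Car2, carbonic anhydrase 2, had a median of 61.5 UMIs per erythroblast-like cell (4 to 153) and 3 per reticulocyte-like cell (0 to 69). Alas2 had medians of 24.5 and 27 UMIs (0 to 110 and 0 to 109). All 7 markers were thus present in the erythroblast-like arm, though not in each of its cells, while 32 of the 40 reticulocyte-like cells held no Klf1. Whether a cell had a nucleus was not measured, so the names stand for ranges of detected genes and not for types.

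The cut points lie in a continuous range. The 3 cells just outside the globin limit had 8.98%, 9.0% and 9.36% adult globin, and the 3 just inside had 10.2%, 10.3% and 10.9%. At the gene limit the nearest cells had 886, 960 and 991 genes on one side and 1039, 1051 and 1093 on the other, and 13 of the 142 members (9.15%) had 800 to 1200 genes. Erythroblast-like cells held 7363 to 50911 UMIs (median 16236) and 1039 to 7084 genes (median 2341.5). Reticulocyte-like cells held nearly as many UMIs, 6841 to 55236 (median 12313), over 152 to 991 genes (median 500.5). Adult globin took a median of 46.5% of UMIs in the first arm (10.2 to 92.0) and 92.8% in the second (77.3 to 97.5), which leaves medians of 8365 and 1012.5 non-globin UMIs per cell.

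**Figure D1:**
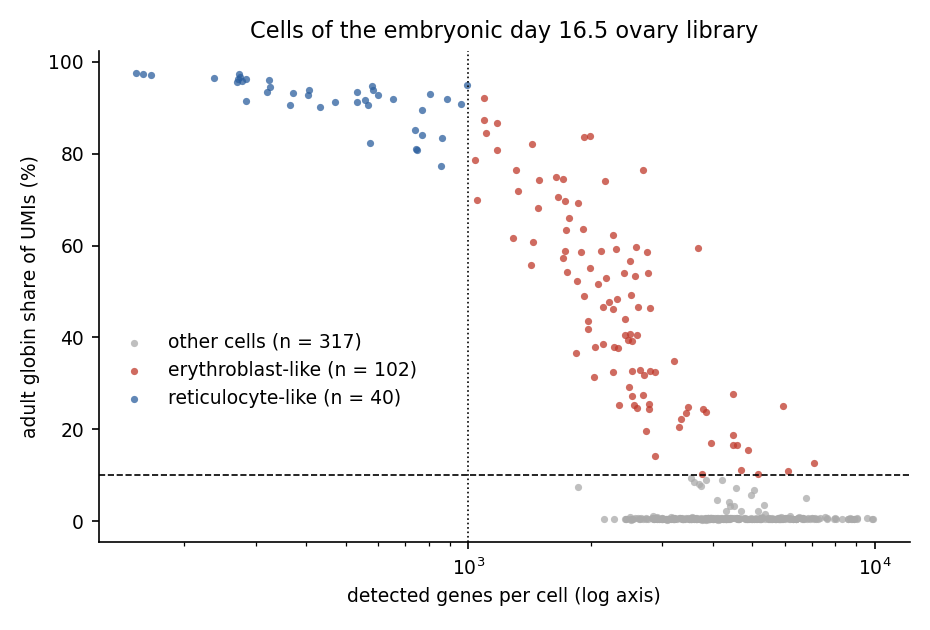
Each point is 1 cell of the embryonic day 16.5 library, with detected genes on the x axis (log scale) and the adult globin percent of its UMIs on the y axis, coloured by arm or as other cell. The 142 members run from 10.2% to 97.5% without a gap at 1000 genes, and the 317 other cells have a median of 0.565%.

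Of the whole series, the fetal library held 8994085 UMIs, and the postnatal ones 8743797 and 9065595, with 0 barcodes shared between any pair of libraries. The same rule found 14 of 510 cells at postnatal day 7 (2.75%; 8 erythroblast-like and 6 reticulocyte-like) and 11 of 585 at day 14 (1.88%; 1 and 10). Adult globin was 16.9%, 1.37% and 2.32% of all UMIs, and members held 95.9% of it in the fetal library. Every one of the 317 other fetal cells also had adult globin UMIs, at a median of 0.565% against 0.0443% and 0.0426% in the other postnatal cells, so globin counts of a few UMIs are not read as expression. In this digest, red cells of the ovary and of the blood in it cannot be told apart.

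The adult globin chains chose the members, so their levels are given as a description. In the erythroblast-like cells Hba-a1 ran from 752 to 10467 UMIs per cell (median 2192.5), Hba-a2 from 382 to 8640 (1239), Hbb-bs from 558 to 15462 (2596.5) and Hbb-bt from 91 to 5758 (711.5). In the reticulocyte-like cells the medians were 3168.5, 2589.5, 4278 and 1448.5 UMIs. The ranges of the arms overlapped for each chain. α chains made 50.3% of adult globin UMIs in the first arm and 49.9% in the second, summed over cells.

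Embryonic chains were rare in members, and only Hbb-bh1 stood clearly above its level in the other cells. Hbb-bh1, an embryonic β-like chain, had 33 UMIs in 16 erythroblast-like cells and 10 UMIs in 10 reticulocyte-like cells, against 1 UMI in the 317 other cells, which hold 6405699 UMIs of all genes. Single cells with 10 and 7 of these UMIs carried 4862 and 5616 adult β UMIs; adult globin had made them members. Hbb-y, the other embryonic β-like chain, had 17 and 4 UMIs in the arms and 29 in the other cells, and Hba-x, the embryonic α-like chain, 3, 2 and 7. Together Hbb-y and Hbb-bh1 were 0.0110% of β-like UMIs in the erythroblast-like cells (50 of 455354; 0.00815 to 0.0145) and 0.00514% in the reticulocyte-like cells (14 of 272191; 0.00281 to 0.00863). The highest share in a member was 0.328%. The other cells held 29 Hbb-y and 1 Hbb-bh1 UMIs beside 28348 Hbb-bs and 6759 Hbb-bt UMIs. Their share was thus higher, and no excess in members is read from it. Hbb-bh0 had 0 UMIs in both arms, which allows 3, and Hbb-bh2 had 1. Hbq1b, a θ globin gene of the α cluster, had 232 UMIs in 74 of 102 erythroblast-like cells, 13 in 10 reticulocyte-like cells and 12 in other cells, while Hbq1a had 7, 3 and 0.

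In the fetal library the balance between the gene copies of a chain differed more between the arms for α than for β. Hba-a2 made 28.0% to 48.0% of α UMIs per erythroblast-like cell (median 36.8) and 39.8% to 49.99% per reticulocyte-like cell (median 45.8). Along the ranges of detected genes its median share was 31.9% in cells with 4000 or more genes, 36.3% at 2000 to under 3000, 41.4% at 1000 to under 2000, 46.7% at 500 to under 1000 and 44.3% under 500. Over the 142 cells the share had a Spearman correlation of −0.68 with detected genes and −0.01 with UMIs; the cells share 1 library, and within the reticulocyte-like arm the first was 0.34 (n = 40). Hbb-bt made 5.56% to 39.1% of adult β UMIs per erythroblast-like cell (median 23.6) and 16.9% to 37.3% per reticulocyte-like cell (median 26.2). In the postnatal libraries the median Hbb-bt share was 21.3% over 8 erythroblast-like and 18.5% over 6 reticulocyte-like cells at day 7, and 17.1% over 10 reticulocyte-like cells at day 14. Summed over cells, the shares were 19.5%, 19% and 17%, beside 26.1% and 27.4% in the fetal arms. The Hba-a2 medians at day 7 were 32.3% and 40.2%, but summed over cells the shares were 36.03% and 36.00%, so the α difference between the arms was not seen in the sums there. Per cell the postnatal Hbb-bt shares (10.1 to 24.6%, 12.5 to 21.4% and 13.4 to 21.2%) lay inside the fetal Hbb-bt ranges or overlapped them. Since the Hba-a1 and Hba-a2 transcripts are nearly the same, what part read assignment has in the α split was not tested.

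**Figure D2:**
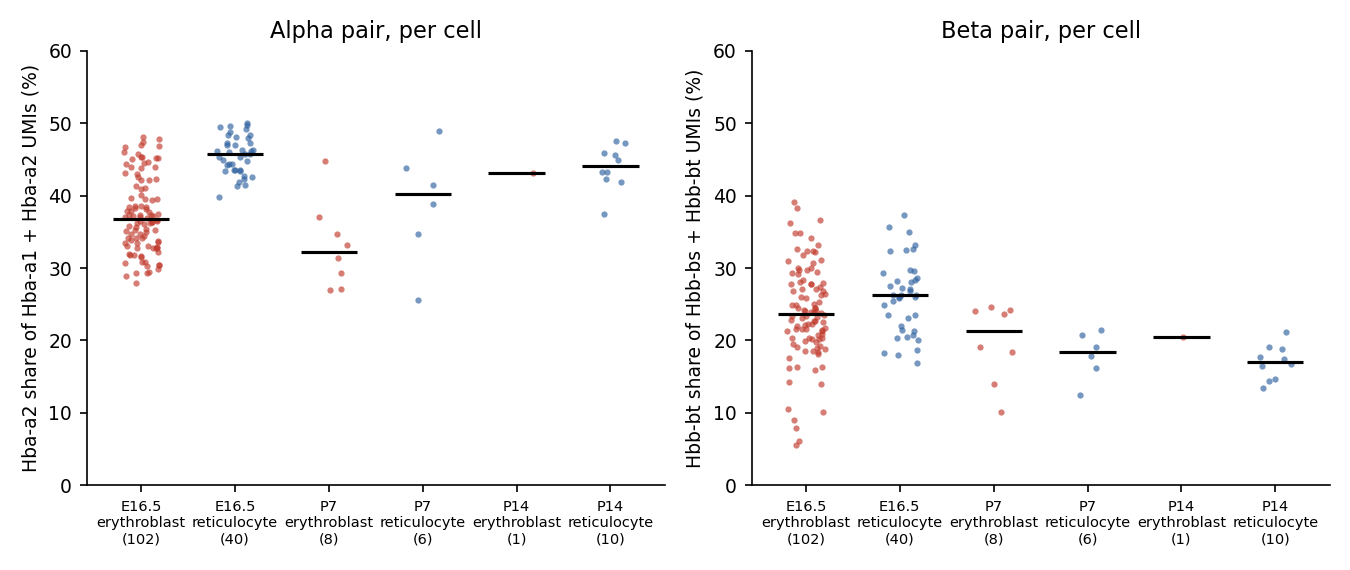
Each point is 1 cell with 10% or more adult globin, grouped by library and arm; the y axes give Hba-a2 as percent of Hba-a1 and Hba-a2 UMIs and Hbb-bt as percent of Hbb-bs and Hbb-bt UMIs, with the median as a line. In the fetal library the Hba-a2 medians are 36.8% and 45.8%, and the Hbb-bt medians 23.6% and 26.2%, above the 17.1% of the 10 day 14 reticulocyte-like cells.

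To compare the arms beyond globin, UMIs were summed over the cells of an arm, the 11 globin genes were left out, and levels were given per 1000000 non-globin UMIs (non-globin CPM; 1084231 UMIs in the first arm and 45469 in the second). They are not scaled to gene length, since 3′ tags count molecules. A gene with 20 or more UMIs in both arms together was measured, and it was called at 2-fold or more on the scale of log2(non-globin CPM + 20). The arms were cut on detected genes, so these counts describe them and carry no test. Of 5066 measured genes, 1834 (36.2%) were higher in the erythroblast-like cells and 338 (6.67%) in the reticulocyte-like cells, with a median log2 ratio of 0.55. With the added demand that the exact interval of the ratio excludes 1, 448 (8.84%) and 259 (5.11%) remained. The direction depends on the denominator: per 1000000 UMIs of all genes, globins included (the all-UMI scale), the median moved to 1.00 and the counts to 2548 and 3, and per cell to 1.73, 4580 and 1. Below, "higher" means per non-globin UMI. Of the 338 genes higher in the reticulocyte-like cells on that scale, 55 stayed above the erythroblast-like level on the all-UMI scale and 18 per cell, so the direction of the others flips there. Counts of list genes are read against the shares of 36.2% and 6.67% over all measured genes. As every 1 UMI in the smaller arm is 22 CPM, 1380 measured genes were at 0 in an arm, and with these set to the limit of 3 UMIs the median over all genes was −0.07. Against the other fetal cells, 662 of 13323 measured genes (4.97%) were higher in members, among them Alas2 (114-fold), Slc25a37 and Hemgn; the rule used that contrast and nothing is read from it.

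Markers of other cell classes were sparse in the members and not equal between the arms. In lists of 10 markers each, the erythroblast-like and reticulocyte-like arms held 166 and 12 UMIs of granulosa, 115 and 30 of stroma, 107 and 18 of germ cell, 443 and 9 of endothelium, 37 and 8 of macrophage, 45 and 1 of megakaryocyte and 79 and 16 of granulocyte and mast cell markers. Per 1000000 non-globin UMIs, stroma stood at 106 and 660 CPM against 1913 CPM in the other cells, germ cell at 98.7 and 396 against 1159, granulocyte at 72.9 and 352 against 761, and endothelium at 409 and 198 against 360. Each median cell of both arms held 0 or 1 UMI of every class, and 4 erythroblast-like cells held 50 or more (175 and 235 endothelial, 48 germ cell and 96 granulosa UMIs). Without these 4 cells the counts of genes were 1757 and 333. Measured genes of these lists were called as follows in the erythroblast-like and reticulocyte-like direction: 1 and 0 of 3 granulosa, 0 and 4 of 5 stroma, 0 and 1 of 1 germ cell, 5 and 0 of 10 endothelium, 0 and 0 of 1 megakaryocyte and 0 and 2 of 2 granulocyte genes. With the interval rule 3 stroma (Col1a2, Mgp and Col3a1), 1 germ cell (Sycp3) and 2 granulocyte genes (S100a8 and S100a9) stayed in the second direction and 0 in the first. Of these 6, Col1a2 was higher in the reticulocyte-like cells on all 3 scales and Mgp on the all-UMI scale too, while Col3a1, Sycp3, S100a8 and S100a9 flipped on both other scales. No macrophage marker was measured, and Adgre1, C1qa and Mrc1 (macrophage), Mpo, Elane and Prtn3 (granulocyte), Ppbp, Gp1bb and Plek (megakaryocyte) and Nr2f1 (stroma) were at 0 in both arms. Ribosomal protein genes made a median of 27.8% of non-globin UMIs in the first arm and 14.4% in the second, and mitochondrial genes 0.825% and 1.27%. The part of these differences in the results was not tested.

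Genes at the reticulocyte-like end were led by Bpgm and Mkrn1. Bpgm (chr6:34476207-34505613, GRCm38), whose enzyme makes the 2,3-bisphosphoglycerate that lowers the oxygen affinity of haemoglobin, was found in 47 of 102 erythroblast-like cells (lowest 0, median 0, highest 31 UMIs) and in 38 of 40 reticulocyte-like cells (0, 6 and 26). Nearly all cells of the second arm thus held it, although their ranges overlap. Its level was 257 CPM (228 to 289) against 7016 CPM (6267 to 7829), 27.3-fold higher in the reticulocyte-like cells (23.1 to 32.1; log2 ratio −4.67). Of 164 genes with 50 or more UMIs in the reticulocyte-like cells, 11 had more UMIs per cell there than in the erythroblast-like cells. The 164 were chosen on UMIs of the reticulocyte-like arm alone, so the count describes this set and no share is read from it. The excess was largest for Bpgm, at 7.98 against 2.74 UMIs per cell, and among the others were Mkrn1, Fam220a, Hba-ps4, Ncoa4, Fam126a, Ubb, Prr13, Bcl2l1 and Bnip3l. Among the 11 only Bpgm, at 2.92-fold, passed 2-fold per cell. Prr13, Bcl2l1 and Bnip3l were nearly level on that scale, at 1.05-fold, 1.04-fold and 1.01-fold.

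Several of these 11 have known parts in cell remodelling. Mkrn1, a ubiquitin ligase, had medians of 5.5 and 11.5 UMIs per cell (0 to 67 and 0 to 36) and was 15.1-fold higher (13.5 to 16.8). Ubb, which encodes polyubiquitin, had medians of 13 and 27 UMIs (2 to 106 and 2 to 77) and was 11.8-fold higher (10.9 to 12.7). Bnip3l, the receptor that directs mitochondria to autophagy in reticulocytes, had medians of 4.5 and 6 UMIs (0 to 33 and 0 to 20) and was 9.41-fold higher (8.13 to 10.9). Per cell its arms were nearly level, at 6.61 and 6.65 UMIs. Ncoa4, the cargo receptor that brings ferritin to the lysosome, was 13.3-fold higher (10.8 to 16.4). Bcl2l1, an anti-apoptotic gene downstream of the erythropoietin receptor, was 9.70-fold higher (7.30 to 12.8), but nearly level per cell, at 1.78 and 1.85 UMIs. Hba-ps4, an α-globin pseudogene on chromosome 17, was 14.9-fold higher, but its reads may not be separable from those of the active α genes.

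**Figure D3:**
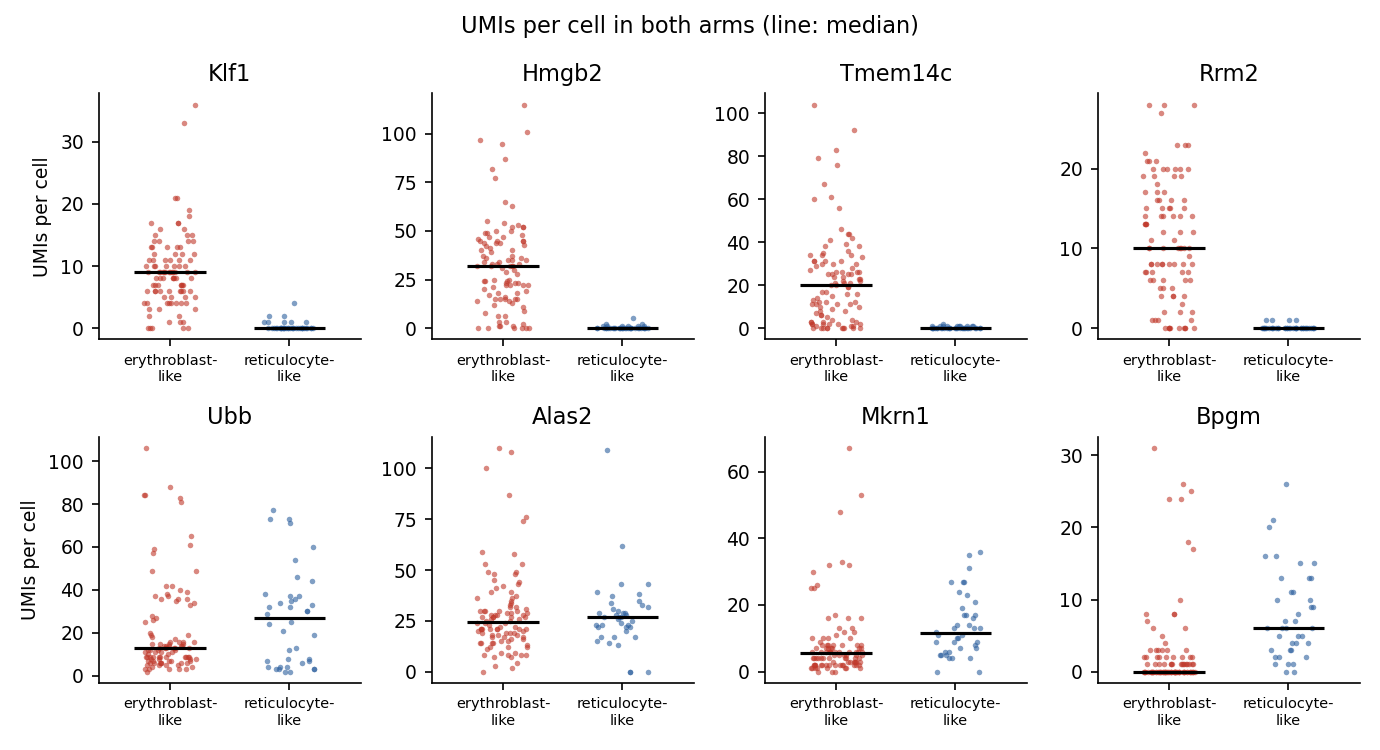
UMIs per cell (linear scale) of selected genes in the 102 erythroblast-like and 40 reticulocyte-like cells, each point 1 cell and each line the median. Medians of Bpgm are 0 and 6 and of Mkrn1 5.5 and 11.5, while those of Klf1, Tmem14c and Hmgb2 are 9, 20 and 32 against 0.

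Most clearance genes were higher in the reticulocyte-like cells. Of 18 genes of organelle and protein clearance, 15 were measured, 12 (80.0%, beside 6.67% of all measured genes) were higher in the reticulocyte-like cells, also with the interval rule, and 1 was higher in the erythroblast-like cells (0 with the interval rule). Their median log2 ratio was −2.30 beside 0.55 over all measured genes, but it turned to 0.19 on the all-UMI scale and to 0.56 per cell. Summed, the list had 7660 and 60921 CPM, or 81.4 and 69.3 UMIs per cell. Ube2l6, a ubiquitin-conjugating enzyme, was 8.64-fold higher (7.62 to 9.77) and Gabarapl2, an autophagosome protein, 8.08-fold (6.73 to 9.66), both with fewer UMIs per cell in the reticulocyte-like arm. Map1lc3b, also of the autophagosome, was 6.49-fold higher (5.14 to 8.12), and flipped on both other scales. Ube2o, which marks ribosomal and other proteins for removal in reticulocytes, had 43.3 and 462 CPM (10.7-fold, 6.05 to 18.2; 47 and 21 UMIs). Ubac1, a ubiquitin ligase subunit, was not called, at 909 and 550 CPM.

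Of 11 measured heme synthesis genes 2 were higher in each arm (18.2%) and 7 in neither. The median log2 ratio was 0.47, and −0.47 with the arms cut at 1500 genes. Alas2 (chrX:150547375-150570638, GRCm38) had 2708 CPM (2611 to 2808) and 24478 CPM (23061 to 25960), 9.04-fold higher in the reticulocyte-like cells (8.43 to 9.69), though per cell the arms held 28.8 and 27.8 UMIs. Fech, the ferrochelatase that inserts the iron, had 1800 and 7192 CPM, 3.99-fold higher (3.54 to 4.49), but flipped to log2 ratios of 0.79 on the all-UMI scale and 1.21 per cell. Tmem14c and Slc25a38 were called in the other direction. Tmem14c, which carries protoporphyrinogen into the mitochondrial matrix, had 0 to 104 UMIs per erythroblast-like cell (median 20, present in 92 cells) and 0 to 2 per reticulocyte-like cell (median 0, present in 11), a level 8.0-fold lower in the latter (4.57 to 15.5). Slc25a38, the mitochondrial glycine carrier, had 209 UMIs in the first arm and 0 in the second, at least 2.92-fold lower against the limit of 3 UMIs. Alad, an enzyme of the middle steps, had 1307 and 792 CPM and was not called.

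Iron genes higher in the reticulocyte-like cells were led by Ftl1. Of 14 listed, 13 were measured, 4 were higher in the reticulocyte-like cells and 2 in the erythroblast-like cells (0 with the interval rule), with a median of −0.32, or −0.94 with genes at 0 set to 3 UMIs. The median turned to 0.29 with the arms cut at 800 genes, to 0.97 on the all-UMI scale and to 1.54 per cell. Ftl1, ferritin light chain, had 12 to 209 UMIs per erythroblast-like cell (median 38) and 4 to 162 per reticulocyte-like cell (median 20.5), 6.09-fold higher per non-globin UMI (5.73 to 6.47) and lower on both other scales. Fth1, the heavy chain, was 2.15-fold higher (2.00 to 2.30), but its log2 ratio of −1.10 stood at 0.21 at postnatal day 7. Isca1 and Fam210b completed the 4, and all of them flipped on the other scales. Tfrc, the transferrin receptor, was not called, at 422 CPM (384 to 462) and 330 CPM (185 to 544), and neither was Slc25a37, the mitochondrial iron importer mitoferrin, at 1173 and 1847 CPM.

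Of 20 measured transcription factors of the lineage, 7 (35%) were higher in the erythroblast-like arm (6 with the interval rule) and 1, Foxo3, in the other. The shares lie near the 36.2% and 6.67% of all measured genes, so the count is no result about the list. The median was 0.49 (0.31 with genes at 0 set to 3 UMIs). Klf1 (chr8:84901928-84905291, GRCm38) was 861 CPM (806 to 918) against 286 CPM (152 to 489), 3.01-fold (1.75 to 5.67). This call was lost with the arms cut at 1500 genes, where its log2 ratio was 0.03 in place of 1.53, and was not made at postnatal day 7 (0.11). Gata1, the GATA factor of maturing red cells, had 301 UMIs in 85 cells and 5 UMIs in 4 cells, 278 against 110 CPM (2.52-fold, 1.07 to 7.83). Gfi1b and Zbtb7a, repressors of the lineage, had 178 and 230 UMIs in the first arm and 0 in the second, at least 2.49-fold and 3.22-fold lower. Foxo3, a factor of late erythroid maturation, had 103 and 12 UMIs (95 and 264 CPM) and flipped on both other scales. Tal1, Sox6 and Bcl11a were not called; Bcl11a, a repressor of embryonic globin, had 99 UMIs in 42 erythroblast-like cells and 2 in the others.

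Most genes of early progenitors were near 0, except Cd24a, a surface protein also found on later red cell precursors, which held 5449 of the 5648 UMIs of the list in the erythroblast-like arm and 394 of 399 in the other. It was not called, at 5026 and 8665 CPM, with medians of 51 and 7.5 UMIs per cell (5 to 130 and 0 to 38). Kit, the stem cell factor receptor, had 3 UMIs in 1 erythroblast-like cell, Gata2 had 4 and Myb 2, and all 3 had 0 in the reticulocyte-like cells. Of 14 progenitor genes 4 were measured. Cd34 and Ikzf1 were called higher in the erythroblast-like cells, with intervals that include 1. In the 12 members at 10 to 20% globin, 25 Cd34 UMIs lay in 2 cells. Of 12 erythropoietin signalling genes 5 were measured, 1 higher in the erythroblast-like cells and 2 in the others (median −0.01). Epor, the receptor, had 233 UMIs in 83 cells and 3 UMIs in 2 cells, 215 against 66.0 CPM (3.26-fold, 1.10 to 15.9). Pim1, a kinase induced by that receptor, was 3.58-fold higher in the reticulocyte-like cells (2.40 to 5.17), where 3 cells held 21 of its 33 UMIs, and flipped on both other scales.

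Cell cycle genes stood on the erythroblast-like side. Of 20 S phase genes 15 (75%, beside 36.2% of all measured genes) were higher there (12 with the interval rule) and 0 in the other arm, with a median of 1.90, or 1.37 with genes at 0 set to 3 UMIs. Of 20 G2 and M phase genes 18 were higher there (10 with the interval rule) and 0 in the other arm (median 1.83, or 1.45). Of 13 measured cyclin and kinase inhibitor genes the counts were 9, 7 and 0 (median 1.71, or 1.68). These directions held on the scales of all UMIs and of UMIs per cell. There 2548 and 4580 of all 5066 measured genes were higher in the erythroblast-like cells, so the holding is not particular to these lists. Rrm2, a ribonucleotide reductase subunit for DNA synthesis, had a median of 10 UMIs in the erythroblast-like cells (0 to 28, present in 92) and 4 UMIs in all in the reticulocyte-like cells, 11.9-fold lower (4.63 to 43.7). Pcna, the DNA polymerase clamp, had 480 UMIs and 1 (20.1-fold, 3.60 to 797), Top2a 712 and 3 (9.95-fold, 3.39 to 48.4) and Mki67 588 and 5 (4.93-fold, 2.1 to 15.2). Ccnd3, the D cyclin that sets the number of erythroid divisions, was 4.05-fold lower in the reticulocyte-like cells (2.31 to 7.87). So were the kinase inhibitor Cdkn2d (3.70-fold, 1.43 to 13.7) and the antiproliferative gene Btg2 (3.63-fold, 1.66 to 9.93).

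G2 and M phase genes did not all lie on 1 side. Ube2c, which charges ubiquitin for the anaphase-promoting complex, had 0 to 77 UMIs per erythroblast-like cell (median 11.5) and 0 to 13 per reticulocyte-like cell (median 2.5, present in 33 of 40). Its level was 1.67-fold higher in the reticulocyte-like cells (1.38 to 2.00), short of 2-fold and flipped on the other scales. Nusap1, a spindle protein, had 557 and 924 CPM in the same order and flipped likewise. No cycling is read from levels of this kind.

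The 12 genes with the largest ratios in the erythroblast-like direction included Dek and Hist1h2ap. Dek, a chromatin protein, had a median of 16 UMIs per erythroblast-like cell (0 to 47) and 2 UMIs in all reticulocyte-like cells, 38.4-fold lower (10.6 to 317). Hist1h2ap, a replication-dependent histone, had 1192 UMIs and 1 (49.99-fold, 8.95 to 1976) and Pclaf, a PCNA partner, 675 and 1 (28.3-fold, 5.06 to 1120). Ctbp1, a corepressor, had 456 UMIs and 0, at least 6.37-fold lower against 3 UMIs (lower interval limit 5.16). Reep5, of the tubular endoplasmic reticulum, had 311 and 0, at least 4.35-fold lower against 3 UMIs (lower interval limit 3.51). Hdgf, Acp5, Aqp1, Paics, Rrm1, Smc6 and Zbtb7a were the others. Hmgb2, a nuclear DNA-bending protein, had a median of 32 UMIs (0 to 115) and 15 UMIs in all 40 reticulocyte-like cells, 9.30-fold lower (5.63 to 16.6), and Hmgb1 was 5.75-fold lower (2.91 to 13.3).

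The lists of nuclear condensation and of nuclear RNA were mixed. Of 16 condensation and enucleation genes 3 were higher in the erythroblast-like cells (2 with the interval rule) and 4 in the reticulocyte-like cells (median 0.37). The 4 were Riok3, a kinase needed for enucleation (7.61-fold, 5.32 to 10.7), Xpo7, a nuclear exporter (7.51-fold, with 16 of 23 UMIs in 3 cells), Gadd45a, a stress gene (4.56-fold, 3.37 to 6.07), and Foxo3. All 4 had fewer UMIs per cell in the reticulocyte-like arm, so their direction flips on that scale, and Gadd45a and Foxo3 flip on the all-UMI scale too.
Of 8 RNAs retained in nuclei 6 were measured, 1 higher in the erythroblast-like cells and 2 in the others (median −0.20). Malat1, the most abundant of them, had 10044 and 9677 CPM, yet per cell it had 6 to 1106 UMIs in the erythroblast-like arm (median 79.5) and 0 to 135 in the reticulocyte-like arm (median 2). In the latter 7 cells had 0, and the 6 highest, with 744 to 886 genes each, held 386 of 440 UMIs (87.7%). Without those 6 cells its level was 1592 CPM. Most reticulocyte-like cells thus held little of a nuclear RNA that every erythroblast-like cell held, and a few held much of it. Xist, the RNA of the inactive X chromosome, was 3.63-fold lower in the reticulocyte-like cells (2.22 to 6.36). Neat1 and Meg3 were called in the other direction, from 21 and 12 UMIs; both flipped per cell, and Meg3 also on the all-UMI scale.

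Membrane and surface genes differed gene by gene. Of 14 membrane skeleton genes 3 (21.4%) were higher in each arm, the same with the interval rule, and the median was 0.04, or −0.79 with the arms cut at 1500 genes. Epb41, protein 4.1 that joins spectrin to actin, was 8.47-fold higher in the reticulocyte-like cells (6.2 to 11.4), and Mpp1 5.45-fold (3.82 to 7.63). Tmcc2 was 7.51-fold higher, but 3 of its 13 positive reticulocyte-like cells held 89 of 126 UMIs. All 3 flipped per cell, and Mpp1 also on the all-UMI scale. Add2, β-adducin, had 181 UMIs and 0 (at least 2.53-fold lower in the reticulocyte-like cells), and the spectrin gene Sptb and the actin bundler Dmtn were 3.26-fold (1.10 to 15.9) and 2.54-fold lower (1.22 to 6.36). Slc4a1, the anion exchanger band 3, was nearly level at 1031 CPM (972 to 1093) and 1100 CPM (816 to 1450).

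Of 15 measured surface and blood group genes 5 were higher in the erythroblast-like cells (4 with the interval rule) and 3 in the reticulocyte-like cells (median 0.62, or −0.61 with the arms cut at 1500 genes). The first share, 33.3%, lies near the 36.2% of all measured genes. Slc2a1, a glucose transporter, was 3.57-fold higher in the reticulocyte-like cells (2.38 to 5.19), and Tspo2, a membrane protein of cholesterol traffic in red cells, 2.84-fold (2.09 to 3.79). Both flipped on the all-UMI and per-cell scales. Aqp1, the water channel, had 259 UMIs in 71 erythroblast-like cells and 0 in the others, at least 3.62-fold lower. This difference was not seen at postnatal day 7, where Aqp1 had 790 and 1019 CPM (38 and 7 UMIs, log2 ratio −0.36).

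Of 16 red cell enzyme and antioxidant genes 15 were measured, 6 higher in the reticulocyte-like cells and 2 in the erythroblast-like cells (1 with the interval rule), with a median of −0.76 that turned to 1.71 on the all-UMI scale and to 2.39 per cell. Beside Bpgm, the peroxidase Gpx1 was 3.75-fold higher (3.52 to 3.98), catalase (Cat) 7.86-fold (5.77 to 10.6), the glutathione synthesis subunit Gclm 3.50-fold (2.82 to 4.32), the nucleotidase Nt5c3 3.35-fold (2.47 to 4.48) and the peroxiredoxin Prdx2 2.04-fold (1.86 to 2.24). Per cell all 5 flipped, as for Gpx1 with medians of 67.5 and 28.5 UMIs, and all but Cat flipped on the all-UMI scale. Hk1, a hexokinase, had 91 UMIs in the erythroblast-like cells and 0 in the others.

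Other lists had median differences of under 2-fold between the arms. Of 11 measured genes encoded by mitochondria 1, mt-Co1, was higher in the reticulocyte-like cells (2.91-fold, 2.09 to 3.96; flipped on both other scales) and 0 in the erythroblast-like cells (median 0.25). Of 12 measured dissociation stress genes 3 were higher in the erythroblast-like cells (Dusp1, Dnajb1 and Hspa8) and 2 in the others (Fos and Egr1, from 27 and 10 UMIs, both flipped on the other scales), with a median of −0.25. Of 8 fetal RNA-binding and growth regulators 1 was measured, H19, with 307 and 23 UMIs and no call (median −0.79). Of the 390 UMIs of this list in the erythroblast-like arm, 269 lay in 3 cells rich in other class markers, each with 4000 or more genes. The count is therefore not read as a level of the arm, and the part of these cells in H19 alone was not tested. Lin28b, Igf2bp1 and Hmga2, genes of fetal cells, had 9, 14 and 11 UMIs in the erythroblast-like arm and 0 in the other.

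Along 6 ranges of detected genes the lists did not turn at the same place. From 4000 or more genes (10 cells) over 3000 to under 4000 (10), 2000 to under 3000 (47), 1000 to under 2000 (35) and 500 to under 1000 (20) to under 500 (20), Alas2 stood at 541, 988, 2859, 8218, 20880 and 34743 CPM. Bpgm stood at 45.6, 136, 140, 1098, 6594 and 8220 CPM in the same order. Klf1 stood at 499 and 638 CPM in both ranges above 3000 genes, at its highest value of 1409 CPM at 1000 to under 2000 genes, and at 297 and 254 CPM below that. Of the 4 cells with 50 or more UMIs of other class markers, 3 lay in the range of 4000 or more genes and 1 in the next. Without them Klf1 stood at 716 and 647 CPM in these ranges, in the opposite order, and Bpgm at 29.0 and 36.6 CPM. These ranges follow the measured gene number, which is lower where the globin share is higher (medians of 16.0% and 95.7% at the ends), so they are an order of cells and not of time.

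The clearance list stood at 3745, 4845, 6972, 19859, 58810 and 66944 CPM, while the S phase list was highest at 2000 to under 3000 genes (6218 CPM) and the G2 and M phase list at 1000 to under 2000 genes (10903 CPM). Below 1000 genes these cell cycle lists were at 861 and 1102 and at 4336 and 5423 CPM. Tmem14c was highest at 2000 to under 3000 genes (2591 CPM), or at 4000 or more (2720 CPM) without those 4 cells, and stood at 297 and 169 CPM below 1000. Car2 was highest at 500 to under 1000 genes (12089 CPM) and lower under 500 (4491 CPM).

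**Figure D4:**
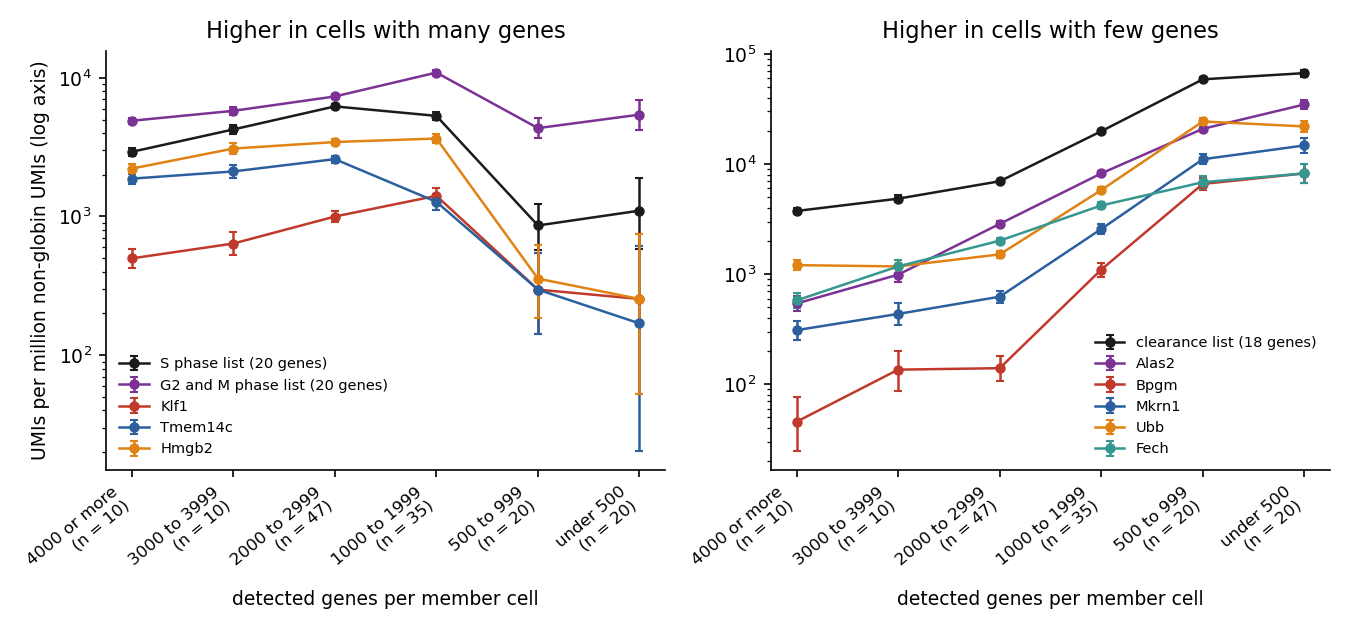
Non-globin CPM (log scale) of selected genes and lists in 6 ranges of detected genes, from most to fewest genes, with 95% Poisson intervals. Bpgm, Alas2 and the clearance list are highest under 500 genes, Klf1 at 1000 to under 2000 and the S phase list at 2000 to under 3000.

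Thinning every cell to 5000 UMIs, with 0 cells left out, equalised total depth but not non-globin depth, as medians of 1132.5, 220.5 and 2091 genes remained in erythroblast-like, reticulocyte-like and other cells. Bpgm was then found in 29.4% of erythroblast-like cells, 85.0% of reticulocyte-like cells and 12% of the other cells, and Mkrn1 in 80.4%, 92.5% and 30.9%. Unthinned, the Bpgm shares were 46.1%, 95% and 38.2%, at median depths of 16236, 12313 and 14564 UMIs. Klf1 was found in 82.4% of thinned erythroblast-like cells and 7.50% of reticulocyte-like cells, below the 11.4% of the other cells. Among the latter, 29 cells picked by their Klf1 and Gata1 UMIs held 472 of the 529 Klf1 UMIs (89.2%). The other cells are thus not a group that lacks Klf1. Hmgb2 was found in 87.3% and 15.0%, and in 76.0% of the other cells. At 300 non-globin UMIs per cell, which leaves out 3 reticulocyte-like cells, Bpgm was found in 8.82%, 81.1% and 1.89% of the 3 groups of cells, Tmem14c in 33.3%, 8.11% and 7.57%, and Klf1 in 22.5%, 13.5% and 1.89%. The order of Bpgm was thus the same at both depths, while Klf1 in the reticulocyte-like cells was below the other cells at the first and above them at the second, so no order is read between these.

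The same cuts in the postnatal day 7 library, which took no part in choosing the fetal cells, gave arms of 8 and 6 cells with 48098 and 6867 non-globin UMIs. Of 449 measured genes 177 (39.4%) were higher in the erythroblast-like and 80 (17.8%) in the reticulocyte-like cells, with a median of 0.68. Of 81 list genes measured in both libraries, 24 were higher in the fetal reticulocyte-like cells; 20 of these were called the same way at day 7 and 1, Meg3, the opposite way (log2 ratios of −2.19 and 2.36). Of 27 higher in the fetal erythroblast-like cells, 21 were called the same way at day 7 and 0 the opposite way. Across the 81 genes, which are not independent replicates, Pearson's r was 0.83 and Spearman's rho 0.85. The cut on detected genes was the same in both libraries and by itself separates cells of many and few genes. A gene with 20 UMIs in either day 7 arm and 0 in the other is measured through that arm alone, and its call is then fixed. Mcm7, Cdkn2c and Icam4, at a day 7 log2 ratio of 4.45, are such genes among the 21. The counts and both correlations are therefore a description, and no support is read from them.

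The ratios between the arms were close in both libraries for Bpgm, Alas2, Mkrn1 and Ubb, though not every level was. Bpgm had 478 and 12524 CPM in the day 7 arms (26.2-fold, 16.4 to 43.5; 23 and 86 UMIs), beside 27.3-fold in the fetus. Its fetal levels were lower in both arms, at 257 and 7016 CPM. Alas2 had 2973 and 26649 CPM (8.96-fold), Mkrn1 811 and 14126 CPM (17.4-fold) and Ubb 2599 and 23882 CPM (9.19-fold). Hmgb2 had 3950 and 728 CPM, a log2 ratio of 2.41 beside 3.14 in the fetus. Klf1 was not apart there, at 790 and 728 CPM, the latter from 5 UMIs. By list, 7 of 8 measured clearance genes were higher in the day 7 reticulocyte-like cells and 1 in the other arm (median −3.20). All 5 measured S phase genes were higher in the erythroblast-like cells, 4 with the interval rule (median 4.45). That median is the value of Mcm7, which stands at 20 UMIs against 0 and so rests on the pseudocount. Day 7 medians are given without setting counts of 0 to 3 UMIs. Of 9 enzyme genes 5 were higher in the reticulocyte-like cells (median −1.13), of 8 heme genes 3 and 2 in the erythroblast-like cells (median −0.11), of 7 iron genes 3 and 1 (−0.65), of 9 surface genes 2 and 2 (−0.36), and of 5 membrane skeleton genes 2 and 0 (−0.85).

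**Figure D5:**
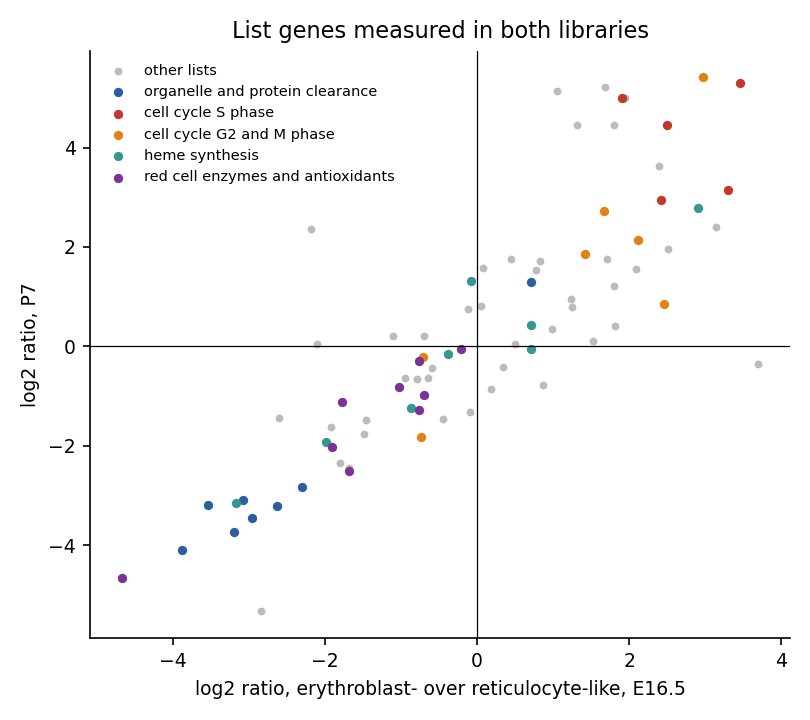
Log2 ratio of (non-globin CPM + 20), erythroblast-like over reticulocyte-like cells, for the 81 list genes measured in both libraries, with the fetal library on the x axis and postnatal day 7 on the y axis. Most genes lie in the lower left or upper right, Bpgm at the lower left end, and Meg3 in the upper left.

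Reticulocyte-like cells could be set side by side at 3 ages, with 40, 6 and 10 cells. Bpgm stood at 7016 CPM (6267 to 7829) in the fetus, 12524 (10017 to 15467) at day 7 and 20594 (17508 to 24068) at day 14. The median number of detected genes in these cells was 500.5, 520 and 356, and within the fetal arm Bpgm stood higher in the cells with under 500 genes; the part of this was not tested. Alas2 stood at 24478 (23061 to 25960), 26649 (22928 to 30802) and 46403 (41707 to 51482) CPM. Mkrn1 stood at 12008, 14126 and 19552 CPM, while Ubb stood at 17075 CPM (14276 to 20262) at day 14 and 23731 (22336 to 25190) in the fetus. Each age is 1 library of few cells, and age and library cannot be told apart.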

How the data were processed

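The 3 libraries were measured with the Chromium 3′ kit version 2. The authors deposited tables of UMI counts, not normalized, for each gene in each cell; Cell Ranger 2.1.1 and GRCm38 are named in the submitters' processing notes. The annotation version was not given in the sources used here. Counts were used as deposited, with Python 3.11.15, numpy 2.4.6, scipy 1.17.1, pandas 2.3.3 and matplotlib 3.10.9. All deposited cells were kept; 139 of the 142 members have 200 or more genes and at most 20% mitochondrial UMIs.

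Members were cells with 10% or more adult globin UMIs, split at 1000 detected genes. UMIs were summed per arm and scaled to 1000000 non-globin UMIs, leaving out 11 globin genes. Genes with 20 or more summed UMIs were compared with a pseudocount of 20. Levels have exact Poisson, ratios exact conditional binomial and shares exact Clopper-Pearson 95% intervals, all for counting error only. A count of 0 was taken to allow 3 UMIs. Folds given as at least a value use these 3 UMIs and are not the lower limits of the 95% intervals. With 1 library per age no p-value was computed. Cells were also thinned to 5000 UMIs or 300 non-globin UMIs with seed 1. The comparison was tested on simulated counts. Doublets were not called; a planned limit of 1% of UMIs from other class markers removed 0 members, and 4 cells with 50 or more such UMIs were left out as an alternative. That alternative and the rule that the interval excludes 1 were chosen after seeing the data.

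The members and the 28 lists (337 entries, 328 genes, markers of 7 other cell classes included) were chosen with earlier results of these data known. Named genes are those at the ends of a list or that define a step, and per direction the 12 with the largest ratio among genes with 50 or more UMIs and intervals that do not overlap. Globins, genes encoded by mitochondria, ribosomal protein genes and predicted genes were left out of the 12. Promoters come from RefSeq (GRCm38.p6), 250 bases before each start, and gene spans from GENCODE. Alternatives changed the globin limit, the gene limit, the scaling, the pseudocount, the filter on low counts and the cells kept. A few genes of the lists are not reported here.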

Additional observations from a re-analysis of the deposited data

How the results depend on the processing

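Globin limits of 5% and 20% gave 153 and 130 members and 1851 and 1490 genes higher in the erythroblast-like arm, 382 and 284 in the other. A limit of 1500 genes put 61.3% of members in the erythroblast-like arm, with 1102 genes higher there. On the all-UMI scale 3 genes were higher in the reticulocyte-like arm and 188 in members over other cells. Per cell the arm counts were 4580 and 1. A pseudocount of 100 gave 324 and 167 genes for the arms and 272 for members. Without the filter on low counts 1030 genes were higher in the reticulocyte-like arm, and with 100 or more UMIs the counts were 605 and 158. With the interval rule 448 were higher in the erythroblast-like arm. Reversed from a 2-fold difference were the median of the clearance list (0.19 on the all-UMI scale, 0.56 per cell), Fech (0.79 and 1.21) and, per cell, Alas2 (0.049). The cause was not tested. Of 205 values of list medians over all alternatives 155 stayed close to the main value, 48 moved and 2 reversed; 31 in all changed sign, among them 6 of 16 on the all-UMI scale, 6 per cell (the enzyme list in both) and 5 at 1500 genes. Of 156 values of 12 named genes, 122 stayed close, 31 moved, 3 reversed and 8 in all changed sign. No paired analysis was possible because each age is 1 library.

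The 40 reticulocyte-like cells hold 45469 non-globin UMIs, so 1 UMI is 22 CPM. The 3 UMIs taken for a count of 0 there are 66.0 CPM, and the exact Poisson limit is 81.1 CPM. Cells of 1 library are not replicates, animals were not separated, RNA outside cells was not removed, and the presence of a nucleus was not measured.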

Other observations

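Cells with red cell transcription factors also stood outside the 10% globin rule. Of the 317 other fetal cells, 32 held 3 or more UMIs of Klf1 and Gata1 together, and 29 of these held under 50 UMIs of other class markers. Both limits were chosen after the values were seen. As Klf1 and Gata1 picked these cells, their share of Klf1 UMIs and their levels of both genes follow from the choice. The 29 cells held 472 of the 529 Klf1 UMIs of the other cells (89.2%), with 0.403% to 9.36% adult globin (median 2.34), 10 of them under 1%. They had a median of 5038 genes and 32253 UMIs, with Klf1 at 454 and Gata1 at 130 CPM. Myb, Gata2 and Kit stood at 55.8, 29.8 and 18.3 CPM, beside 1.84, 3.69 and 2.77 CPM in the 102 erythroblast-like cells. All 11 cells at 5 to 10% globin held 0 Myb, 0 Gata2 and 1 Kit UMIs, and the 12 at 1 to 5% held 10, 2 and 0. Most of the 58 Myb, 31 Gata2 and 19 Kit UMIs of the 29 cells thus lay in the 10 cells under 1% globin.

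On both sides of the globin limit the values ran on. In the 12 cells at 10 to 20% globin, the 11 at 5 to 10% and the 12 at 1 to 5%, Klf1 stood at 495, 578 and 488 CPM. Alas2 stood at 348, 143 and 44.1 CPM, Car2 at 3133, 2785 and 1919, and Slc4a1 at 433, 416 and 85.2 CPM. Cells with 3 or more Klf1 and Gata1 UMIs numbered 11, 10 and 10. The globin limit thus fell within a run of cells with near equal Klf1, and the members leave out cells at its lower end.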
